A study of Mus musculus with 9 samples.

Results

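Dazl, Ddx4, the 4 CPEB genes (Cpeb1, Cpeb2, Cpeb3 and Cpeb4), Ybx2, Igf2bp2 and Pum2 encode RNA-binding proteins that act on stored maternal mRNA. These 9 genes, of 26358 in the deposited table, were chosen by name and role, with earlier results of these data known. Dazl and Cpeb1 were also chosen for their lower counts in oocytes cryopreserved by the second of 2 methods. Their values in that group are therefore given as a description with no test. All 9 genes were found under their symbols, and all 9 passed the filter on low counts.

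The libraries were made from poly(A) RNA of mouse oocytes in 3 groups of 3. Cryopreservation-2 oocytes were frozen in a straw with PVA/Fe3O4/GO nanoparticles, in trehalose at 1 M and EG at 17.5%. For cryopreservation-1 a cryotop was used, a carrier that takes up only a tiny drop, and the solution held EG at 15%, DMSO at 15% and sucrose at 0.5 M. Fresh oocytes were not frozen. Carrier, solutes and nanoparticles differ together between the 2 methods, so a difference between them belongs to the whole protocol. The labels used here give no strain, age or oocyte stage. Nor do they say whether replicates came from separate animals or pools, so the spread that the p-values rest on may be a technical one.

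A growing oocyte makes a large store of mRNA and then stops transcription, and from meiotic maturation until the embryo's own genome is switched on it depends on that store. CPEB proteins bind the cytoplasmic polyadenylation element, a U-rich sequence in the 3′ untranslated region, hold the message silent with a short poly(A) tail, and after the resumption of meiosis help to lengthen the tail and start translation. DAZL binds U-rich sites in 3′ untranslated regions and promotes translation in germ cells, in part together with CPEB1. Pumilio proteins such as PUM2 repress messages that carry their own element, while YBX2, known as MSY2, coats and stabilises stored mRNA. DDX4, the Vasa helicase, is a component of germ granules, and IGF2BP2 is known to bind mRNA and keep it stable.

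Dazl mRNA is itself known as a target of CPEB1 in mouse oocytes. The 3′ untranslated region of each member's annotated transcript (GENCODE, build GRCm38) was searched on its sense strand. The polyadenylation element was searched as TTTTAT or TTTTAAT, the Pumilio element as TGTANATA and the DAZL site as TTTGTTT. Written as DNA, 5′ to 3′, with the motif in capitals, the match nearest to the transcript end is shown for the members on which the results turn:
Dazl, polyadenylation element: aagtcaaaattcTTTTATgtcaccaagtca
Dazl, DAZL site: ctaggtataatTTTGTTTaaagaatccaag
Ddx4, polyadenylation element: acaaatgtttgcTTTTATaatatacagatt
Ddx4, DAZL site: tgtgatgtgctTTTGTTTaattattgggtc
Cpeb1, polyadenylation element: ttgacttttctTTTTAATttaacgattact
Cpeb1, Pumilio element: tgagcagctgcTGTATATAgttttaaatgg
Ybx2, polyadenylation element: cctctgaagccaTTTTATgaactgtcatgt
Pum2, Pumilio element: atgtacagaatTGTATATActtataattgt

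Positions are those of the 30-base stretches shown, and distances are those of the last motif base. The stretch with the Dazl polyadenylation element is chr17:50279752-50279781 on the minus strand, and the motif ends 367 bases from the annotated transcript end. In that of Cpeb1, chr7:81347256-81347285 on the minus strand, the motif ends 242 bases from the end. In those of Ddx4 (chr13:112598371-112598400, minus strand) and Ybx2 (chr11:69941532-69941561, plus strand) it ends closer, at 50 and 56 bases. All 4 stretches are in 3′ untranslated regions. In the whole 3′ untranslated region, Dazl holds 6 polyadenylation elements, Cpeb1 holds 4, Ddx4 holds 2, Cpeb2 holds 24, Cpeb3 holds 6, Igf2bp2 holds 2, Pum2 holds 8 and Ybx2 holds 1. The annotated Cpeb4 transcript has only 45 bases after its stop codon, with 0 matches to any of the motifs searched. It is too short to be scored over the last 100 bases. Thus 8 of 9 members hold the element somewhere, against 60.7% of 13289 scored genes among those tested. In the last 100 bases 2 of 8, Ddx4 and Ybx2, hold it, against 20.1% of 12674 scored genes. The same 8 members also hold the DAZL site somewhere, which 38.8% of scored genes do. The Pumilio element is held by 5 of 9 members, against 25.1% of scored genes. A longer region holds more matches by its length alone, and a match says nothing of binding.

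Total counts lay between 49337232 and 51369012 in cryopreservation-2 libraries, between 64276885 and 80877288 in cryopreservation-1 libraries and between 73899130 and 80100460 in fresh libraries. Cryopreservation-2 replicate 1, cryopreservation-1 replicate 3 and fresh replicate 3 stood apart from the rest, with the most genes at 0 (8421 to 9108, against 6351 to 7744 in the other 6) and the highest scores on the second principal component (20.2 to 43.2, against -25.0 to -5.4). Values without these 3 libraries are given where they matter. The 9 oocyte markers, led by Gdf9 and Oosp1, made up 0.839 to 1.56% of counts in cryopreservation-2, 1.05 to 1.54% in cryopreservation-1 and 1.09 to 1.59% in fresh libraries. Markers of cumulus and granulosa cells, led by Cyp19a1 and Star, made up at most 0.00783% of counts in any library. Those of blood and immune cells, led by C1qb and Cd68, made up at most 0.00146%, and those of stromal and endothelial cells, led by Pecam1 and Dcn, at most 0.0160%. Ptx3, Ptprc, Adgre1, Lyz2 and Col1a1 had between 0 and 14 counts in every library. Other markers of the same lists were detected in all libraries. Pecam1 had 3634 to 10767 counts, Cyp19a1 1671 to 5264, C1qb 93 to 802 and Cd68 39 to 411. The mean of Pecam1 was 107 CPM, near that of the oocyte marker Zp1 at 108 CPM. Figla, also an oocyte marker, had only 42 to 113 counts, and the oocyte sum was mostly Gdf9 (mean 9840 CPM).

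Per unit of length, the members covered a wide range of levels, and Dazl was the most abundant in all 3 groups. Its mean level was 116 FPKM (fragments per kilobase of gene length, scaled to library size) in cryopreservation-2, 318 in cryopreservation-1 and 344 in fresh oocytes, where it ranked 133rd among the 17545 genes tested. Ddx4 followed with mean levels of 88.6, 154.0 and 181 FPKM in those groups. Igf2bp2 came next with 49.1, 59.9 and 56.9 FPKM, then Cpeb1 with 22.9, 40.3 and 32.8 FPKM and Pum2 with 10.8, 14.5 and 17.5 FPKM. The lower members stood far below: Cpeb4 averaged 3.16, 1.57 and 2.55 FPKM, Cpeb3 2.93, 1.62 and 2.39 FPKM, Ybx2 0.989, 0.864 and 0.934 FPKM, and Cpeb2 0.124, 0.157 and 0.193 FPKM.

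The order of the first 5 was the same in the 3 groups, but not all neighbours were separated. In cryopreservation-2, the libraries of Dazl overlapped those of Ddx4, and those of Ddx4 overlapped those of Igf2bp2. In cryopreservation-1 and in fresh oocytes neither pair overlapped. Cpeb4 and Cpeb3 overlapped in all 3 groups, and both also overlapped Ybx2 in cryopreservation-1. In fresh oocytes Cpeb4 overlapped Ybx2 and Cpeb2 as well, through its low value in replicate 3. YBX2 is known as an abundant protein of mouse oocytes, yet in fresh oocytes its mRNA level stood above only 49.8% of the tested genes, with 95 to 281 counts per library. Its paralogue Ybx1 averaged 63.0 FPKM in cryopreservation-2 and 44.5 FPKM in fresh oocytes.

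The largest difference among the members was that of Dazl in cryopreservation-2. Its level there, as counts scaled to library size and by the trimmed mean of M-values (TMM-scaled CPM), was 471, 447 and 519, against 1429, 1272 and 1449 CPM in the cryopreservation-1 libraries and 1228, 2217 and 1315 CPM in the fresh libraries. All 3 cryopreservation-2 libraries lay below every other library, and they lay close together. Of the fresh libraries, replicate 2 was well above the other two. The log2 fold change was -1.73 ± 0.24 (SE) against fresh, a level 3.31-fold lower, and -1.53 ± 0.24 against cryopreservation-1, or 2.89-fold lower. Without any single library the first value lay between -1.88 and -1.41, and without the 3 libraries that stood apart it was -1.73. In a bulk sample, fewer cells with the transcript and less of it per cell cannot be told apart.

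**Figure D1:**
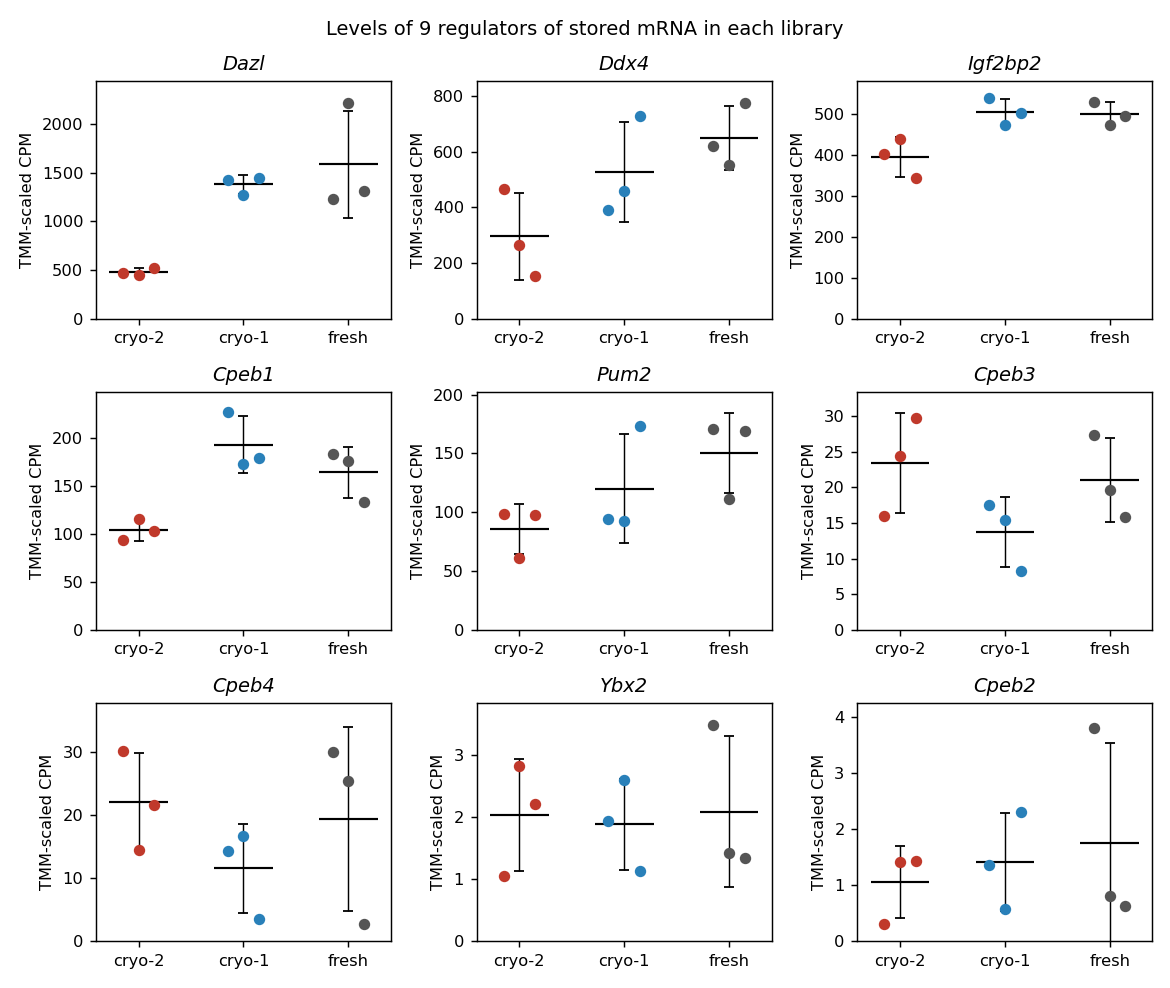
Level of each of the 9 genes in TMM-scaled CPM (vertical axis, linear, from 0) in each library of cryopreservation-2 (red), cryopreservation-1 (blue) and fresh (grey) oocytes; points are libraries in replicate order, horizontal lines means and error bars 1 SD (n = 3). The cryopreservation-2 points of Dazl sit between 447 and 519 CPM, below all other points, while those of Ybx2, Cpeb2, Cpeb3 and Cpeb4 overlap the other groups.

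Cpeb1, the CPEB protein that acts in oocyte maturation, also had its lowest levels in cryopreservation-2, by a smaller factor. It had 93.6, 116 and 103 CPM in cryopreservation-2 libraries, against 227, 173 and 179 CPM in cryopreservation-1 and 183, 176 and 134 CPM in fresh libraries. The cryopreservation-2 values did not reach the lowest value of either other group. Its log2 fold change was -0.66 ± 0.20 (SE) against fresh, or 1.58-fold lower, and -0.89 ± 0.20 against cryopreservation-1, or 1.85-fold lower. In cryopreservation-1 against fresh its log2 fold change was 0.23 ± 0.20 (edgeR's quasi-likelihood test with Benjamini-Hochberg adjustment, adjusted p = 1), with a 95% interval of -0.21 to 0.68.

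The other CPEB genes were far less abundant and did not share this order. Cpeb3 had 15.9, 24.5 and 29.8 CPM in cryopreservation-2, against 17.6, 15.4 and 8.26 CPM in cryopreservation-1 and 27.4, 19.7 and 15.9 CPM in fresh libraries. Cpeb4 had 30.1, 14.5 and 21.5 CPM in cryopreservation-2, against 14.2, 16.7 and 3.53 CPM in cryopreservation-1 and 30.0, 25.4 and 2.69 CPM in fresh libraries. The 2 lowest Cpeb4 values are those of cryopreservation-1 replicate 3 and fresh replicate 3, which are among the 3 libraries that stood apart. For Cpeb3 and Cpeb4 the groups overlapped. Against cryopreservation-1, the log2 fold changes in cryopreservation-2 were 0.77 ± 0.35 for Cpeb3 (edgeR, adjusted p = 0.276) and 0.94 ± 0.76 for Cpeb4 (adjusted p = 0.587), and without the 3 libraries they were 0.84 and 0.34. Against fresh they were 0.16 ± 0.35 for Cpeb3 and 0.19 ± 0.75 for Cpeb4, and without the 3 libraries 0.29 and -0.53, so the sign for Cpeb4 turned. Cpeb2 was near the limit of what could be compared, with 16, 77 and 86 counts in cryopreservation-2, 104, 44 and 143 in cryopreservation-1 and 307, 56 and 44 in fresh libraries. The sign of its difference between the 2 methods also turned, with -0.42 ± 0.88 over all libraries (adjusted p = 0.879) and 0.70 without those 3.

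As a share of the summed FPKM of the 4 CPEB genes, Cpeb1 made up 76.4, 82.8 and 76.4% in cryopreservation-2 libraries. In cryopreservation-1 libraries its share was 91.9, 89.6 and 95.6%, and in fresh libraries 83.1, 86.1 and 92.3%. Cpeb1 thus dominated the family in every library, and its share was lower in all 3 cryopreservation-2 libraries than in any other, although the highest of them and the lowest fresh library differ by little. The ratio of Cpeb1 to Cpeb4 FPKM was 4.73, 12.1 and 7.24 in cryopreservation-2, against 24.2, 15.7 and 77.2 in cryopreservation-1 and 9.26, 10.5 and 75.4 in fresh libraries. That ratio overlapped between cryopreservation-2 and fresh. Since Cpeb1 was chosen for its level in cryopreservation-2, these shares carry no test.

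**Figure D2:**
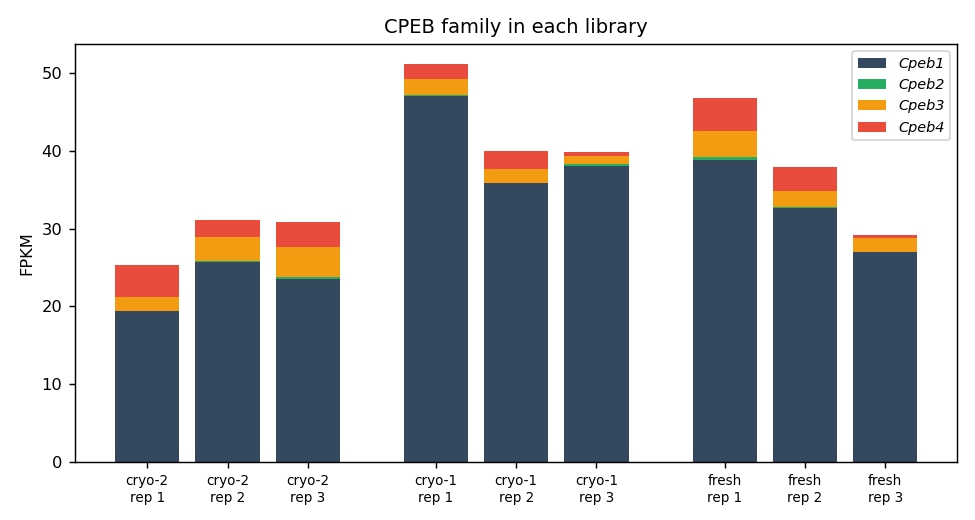
FPKM of Cpeb1, Cpeb2, Cpeb3 and Cpeb4 stacked in 1 bar per library (vertical axis, linear, from 0), with cryopreservation-2 at the left, cryopreservation-1 in the middle and fresh at the right. Cpeb1 makes up 76.4 to 95.6% of every bar, and Cpeb4 is lowest in cryopreservation-1 replicate 3 and fresh replicate 3.

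Ddx4, the germ granule helicase, varied widely within groups. It had 466, 265 and 155 CPM in cryopreservation-2, against 391.5, 460 and 730 CPM in cryopreservation-1 and 621, 551 and 774 CPM in fresh libraries. The cryopreservation-2 libraries lay below all fresh libraries but overlapped those of cryopreservation-1. Its log2 fold change was -1.14 ± 0.38 against fresh and -0.84 ± 0.37 against cryopreservation-1 (edgeR, adjusted p = 0.261). The ratio of Dazl to Ddx4 FPKM was 0.797, 1.33 and 2.65 in cryopreservation-2, 2.88, 2.18 and 1.57 in cryopreservation-1 and 1.56, 3.17 and 1.34 in fresh libraries. These ranges overlapped, and only in cryopreservation-2 replicate 1 was Ddx4 the higher of the 2.

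Igf2bp2 varied little within groups. It had 403, 439 and 344 CPM in cryopreservation-2, against 538, 473 and 504 CPM in cryopreservation-1 and 531, 473 and 496 CPM in fresh libraries. Every cryopreservation-2 value was below every other value, but by a small factor. The log2 fold change was -0.34 ± 0.17 against fresh and -0.35 ± 0.17 against cryopreservation-1 (edgeR, adjusted p = 0.284), with an interval of -0.72 to 0.02 for the second. With offsets for GC content and transcript length, the difference from fresh shrank to -0.17.

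Pum2, the Pumilio repressor, had 98.7, 61.3 and 97.2 CPM in cryopreservation-2, against 93.9, 92.2 and 173 CPM in cryopreservation-1 and 171, 111 and 169 CPM in fresh libraries. It lay below fresh in every cryopreservation-2 library and overlapped cryopreservation-1. Its log2 fold change was -0.81 ± 0.31 against fresh and -0.48 ± 0.31 against cryopreservation-1 (edgeR, adjusted p = 0.456), and the second was -0.11 without the 3 libraries that stood apart. Ybx2 had 1.05, 2.83 and 2.22 CPM in cryopreservation-2, against 1.93, 2.59 and 1.13 CPM in cryopreservation-1 and 3.49, 1.42 and 1.34 CPM in fresh libraries. Its groups overlapped fully, with log2 fold changes of -0.04 ± 0.58 against fresh and 0.11 ± 0.58 against cryopreservation-1 (adjusted p = 0.962). The interval of the second runs from -1.19 to 1.4, so differences of more than 2-fold in either direction are within it.

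**Figure D3:**
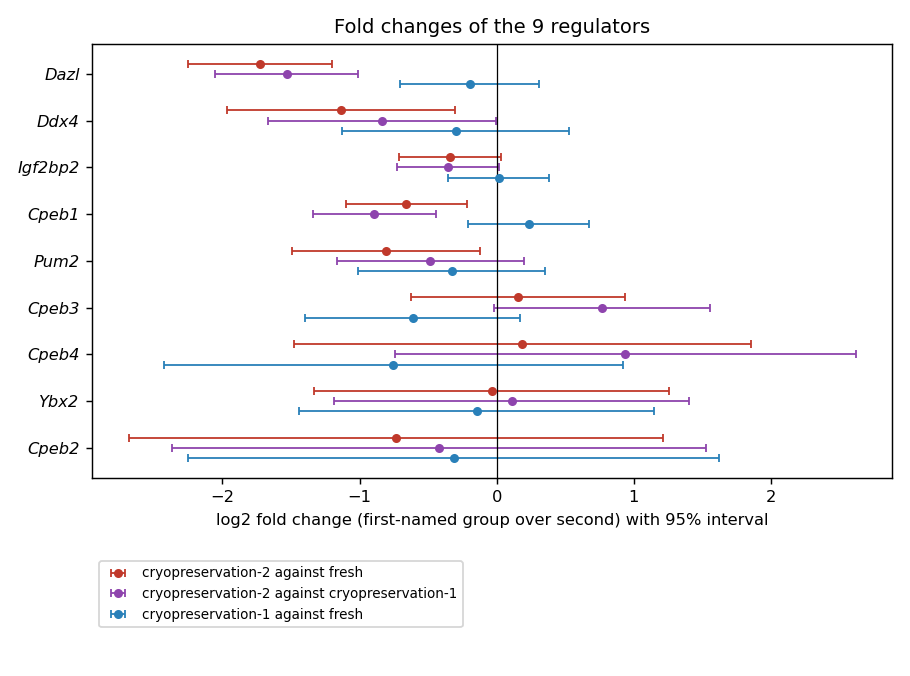
Log2 fold change (horizontal axis) of each of the 9 genes for cryopreservation-2 against fresh (red), cryopreservation-2 against cryopreservation-1 (purple) and cryopreservation-1 against fresh (blue); points are estimates of 1 fit over 9 libraries and bars their 95% intervals. Dazl lies at -1.73 and -1.53 in the comparisons that hold cryopreservation-2 and at -0.20 in the third, and all 9 intervals for cryopreservation-1 against fresh include 0.

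Read against fresh oocytes, 7 of 9 members had a negative log2 fold change in cryopreservation-2, beside 52.4% of all 17545 genes tested. Their median was -0.66, beside -0.06 over all tested genes. The libraries of 5 members (Dazl, Ddx4, Cpeb1, Igf2bp2 and Pum2) lay wholly below the fresh ones, beside 12.4% of tested genes. This contrast helped to choose the genes, and nothing further is read from these counts. The same 5 were the members with the highest FPKM in fresh oocytes.

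Between the 2 methods, 6 of 9 members had a negative value in cryopreservation-2, beside 53.2% of all genes, with a median of -0.42 beside -0.07. Dazl, Cpeb1 and Igf2bp2 had no overlap between the groups and were lower in cryopreservation-2, beside 15.2% of genes. Of the 7 members other than Dazl and Cpeb1, 0 passed edgeR's quasi-likelihood test at an adjusted p under 0.05, which 2.75% of all genes did. At an unadjusted p under 0.05 there was 1, Ddx4, beside 18.9% of all genes. DESeq2 and limma on log2(FPKM + 1) also called 0 of the 7, beside 12.1% and 6.70% of all genes. They had 3 and 1 of the 7 under 0.05 unadjusted. The shares of all genes at that unadjusted threshold are not given here for these tools, so nothing is read from the 3 and 1.

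Whether freezing on the cryotop moved these genes was a comparison not named among the grounds of their choice. It shares the fresh libraries with one that was, and the choice was made with earlier results of these data known. Here 0 of 9 members passed edgeR's test, and 0 of all 17545 genes did (0%). At an unadjusted p under 0.05 there were 0 members, beside 4.72% of all genes. DESeq2 called 65 genes and limma 0, and neither called a member. The groups overlapped for all 9, beside 3.72% of genes wholly lower and 6.37% wholly higher in cryopreservation-1, and 7 of 9 log2 fold changes were negative, beside 47.8%. Dazl had a log2 fold change of -0.20 ± 0.23 with an interval of -0.71 to 0.31, Ddx4 one of -0.30 ± 0.37 with an interval of -1.12 to 0.53, and Igf2bp2 one of 0.01 ± 0.17 with an interval of -0.36 to 0.38. The intervals of Dazl, Cpeb1 and Igf2bp2 therefore leave out a 2-fold change in either direction, and that of Ddx4 leaves out a doubling. For Cpeb2 (-2.25 to 1.62), Cpeb4 (-2.43 to 0.92) and Ybx2 (-1.44 to 1.15) the spread between libraries leaves changes of 2-fold or more within the interval. Cpeb3 had -0.61 ± 0.35 with an interval of -1.40 to 0.17, and Pum2 -0.33 ± 0.31 with one of -1.01 to 0.35 (adjusted p = 1 for all 9). Both intervals leave out a doubling but include a halving, as that of Ddx4 does.

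Levels were also compared between genes over the 9 libraries together, on log2 CPM, leaving out Ybx2 and Cpeb2 for their low counts. Pearson's r with Dazl was 0.85 for Cpeb1, 0.74 for Igf2bp2, 0.67 for Ddx4 and 0.55 for Pum2, and it was -0.39 for Cpeb3 and -0.28 for Cpeb4. These values are a description, since the libraries share groups and depth, and for Dazl the 3 cryopreservation-2 libraries lie apart from the other 6. Dazl and Cpeb1 were both chosen for their lower counts in cryopreservation-2. A high r between them, or of either with other genes low there, therefore follows in part from that choice. Among 6426 genes with a mean of at least 10 CPM, the pattern most like that of Dazl was that of Mrpl3 (r = 0.991), a mitochondrial ribosomal protein gene, followed by Gm839 (0.990), Selenof (0.989), Stard3nl (0.986) and Cisd2 (0.982). Those 5 genes differed from fresh by -0.95, -0.56, -0.61, -0.79 and -0.92 in cryopreservation-2 on the log2 scale, each by less than Dazl. Most like Cpeb1 were Celf1 (r = 0.982), itself an RNA-binding regulator, then Abcg1 (0.967), Angptl2 (0.965) and Prep (0.961). Celf1 averaged 68.9 ± 3.49 CPM in cryopreservation-2, 93.0 ± 5.15 CPM in cryopreservation-1 and 89.7 ± 8.41 CPM in fresh oocytes (SD, n = 3 each).

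The 4 gene lists described from here on were drawn up with earlier results of these data known. The p-values of their genes carry that limit. Of 19 genes for proteins that work with CPEB1 on the poly(A) tail, all tested, 2 rose and 0 fell in cryopreservation-2 against fresh. Over all genes 5.38% were called, with 3.18% that rose and 2.2% that fell. The median log2 fold change of the list was 0.20, beside -0.06 over all genes. Parn, a deadenylase known from frog oocytes to keep the tails of silent messages short, averaged 34.1 ± 12.9 CPM in cryopreservation-2, 11.8 ± 0.862 CPM in cryopreservation-1 and 11.3 ± 2.82 CPM in fresh oocytes. It rose by 1.59 ± 0.31 against fresh (edgeR, adjusted p = 0.0213) and by 1.53 ± 0.31 against cryopreservation-1 (adjusted p = 0.0322), and it was the only gene called in the second comparison among all 4 lists described here, beside 1.5% of all genes that rose and 1.25% that fell there. Pabpn1l, an oocyte and embryo form of the nuclear poly(A)-binding protein, rose by 1.32 ± 0.27 against fresh (adjusted p = 0.0249), with 2978 ± 276 CPM in cryopreservation-2, 1663 ± 306 CPM in cryopreservation-1 and 1197 ± 460 CPM in fresh oocytes. Tent2, the cytoplasmic poly(A) polymerase also called GLD2, had the smallest p among the lower genes, with -0.73 ± 0.22 against fresh (adjusted p = 0.0871). It averaged 85.5 ± 17.4 CPM in cryopreservation-2 and 142 ± 16.0 CPM in fresh oocytes.

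Among 20 cap-binding and masking factors, 2 rose and 0 fell against fresh, beside 3.18% and 2.2% of all genes. The median was 0.35, beside -0.06 over all genes. Eif4e2, a cap-binding protein that represses translation, was low in all groups, at 6.78 ± 1.57 CPM in cryopreservation-2, 2.45 ± 0.494 CPM in cryopreservation-1 and 2.45 ± 0.30 CPM in fresh oocytes, and rose by 1.47 ± 0.34 against fresh (edgeR, adjusted p = 0.0379). Fxr1, of the fragile X family, rose by 0.74 ± 0.16 (adjusted p = 0.0307), with 313 ± 17.96 CPM in cryopreservation-2, 200 ± 4.06 CPM in cryopreservation-1 and 187 ± 18.9 CPM in fresh oocytes. Lsm14a, a component of repressed mRNA particles, had -0.78 ± 0.23 (adjusted p = 0.0759). Between the 2 methods 0 of the 20 were called by edgeR, beside 2.75% of all genes, with 7 under an unadjusted 0.05, beside 18.9%. DESeq2 called 6, beside 12.1% of all genes, and limma called 3 at a pseudocount of 1, beside 6.70%, and 1 at 0.1, beside 5.76%.

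Of 26 other RNA-binding regulators of germ cells and stored mRNA, 22 were tested. Against fresh 0 rose and 1 fell, beside 3.18% and 2.2% of all genes, so nothing is read from this count. The median was -0.17, beside -0.06 over all genes. The gene that fell was Nanos2, known from male germ cells, by 0.91 on the log2 scale (SE 0.23, edgeR, adjusted p = 0.0458), at 108 ± 28.6 CPM in cryopreservation-2, 195 ± 9.65 CPM in cryopreservation-1 and 203 ± 31.5 CPM in fresh oocytes. Stau1, a double-stranded RNA-binding protein, had the smallest p among the higher genes, with 0.40 ± 0.19 (adjusted p = 0.265). Boll and Msi1 had too few counts to test, and Nanos3 and Qki were not analysed here.

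Messages described as controlled by DAZL or CPEB1 in oocytes mostly had slightly negative values against fresh in both cryopreserved groups. In the main edgeR fit none was called lower. Of 22 tested, 17 had a negative log2 fold change in cryopreservation-2 against fresh, beside 52.4% of all genes. The median was -0.30, beside -0.06 over all genes. With edgeR 1 rose and 0 fell, beside 3.18% and 2.2% of all genes. The one that rose was Txnip, the thioredoxin-interacting protein gene, by 1.08 ± 0.23 (edgeR, adjusted p = 0.0293), with 298 ± 74.8 CPM in cryopreservation-2, 219 ± 35.6 CPM in cryopreservation-1 and 142 ± 16.5 CPM in fresh oocytes. Dcp1a, a decapping factor, had the smallest p among the lower ones, with -0.74 ± 0.19 (adjusted p = 0.0533), at 845 ± 82.3 CPM in cryopreservation-2 and 1414 ± 266 CPM in fresh oocytes. It was called lower by edgeR at a mean of at least 5 FPKM and without fresh replicate 2. In those fits 7.66% and 0.997% of all genes fell. DESeq2 called 5 of the 22 against fresh, of which 1 rose and 4 fell (Btg4, Ccnb1, Dcp1a and Dcp2), beside 8.13% and 6.97% of all genes. Limma called 1 at either pseudocount, which rose. It called 10.2% of all genes at a pseudocount of 1 (8.24% rose) and 9.43% at 0.1 (7.43% rose). EdgeR with GC content and length offsets called 4, of which 1 rose and 3 fell (Btg4, Ccnb1 and Orc6). With those offsets 8.12% of all genes were called, with 3.84% that rose and 4.28% that fell. Names added there were chosen after their values were seen. In the other 3 lists DESeq2 called 5 poly(A) tail genes (3 rose, 2 fell), 5 cap-binding and masking factors (4 rose, 1 fell) and 2 of the other RNA-binding regulators (0 rose, 2 fell), beside 15.1% of all genes (8.13% rose, 6.97% fell). Against cryopreservation-1, 12 of the 22 were negative, near the 53.2% of all genes, with a median of -0.16 beside -0.07. EdgeR called 0 (4 under an unadjusted 0.05, beside 18.9% of all genes), DESeq2 1 and limma 0 at either pseudocount. The shares of all genes called there were 2.75% with edgeR, 12.1% with DESeq2, and 6.70% and 5.76% with limma. In cryopreservation-1 against fresh, 18 of 22 were negative, beside 47.8% of all genes, with a median of -0.10 beside 0.02. There edgeR, DESeq2 and limma called 0 genes in any of the 4 lists. At an unadjusted p under 0.05 edgeR gave 5 over the 4 lists, beside 4.72% of all genes. The 6 genes called against fresh over the 4 lists were 0 to 6 genes when 1 library was left out. None was called without fresh replicate 3, and 1 was called, each time Parn, without cryopreservation-2 replicate 2, cryopreservation-2 replicate 3 or fresh replicate 1. Only Parn and Pabpn1l were called without cryopreservation-1 replicate 1, and Txnip alone without the 3 libraries that stood apart. The call of Parn against cryopreservation-1 was lost without any 1 of the 6 libraries compared.

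**Figure D4:**
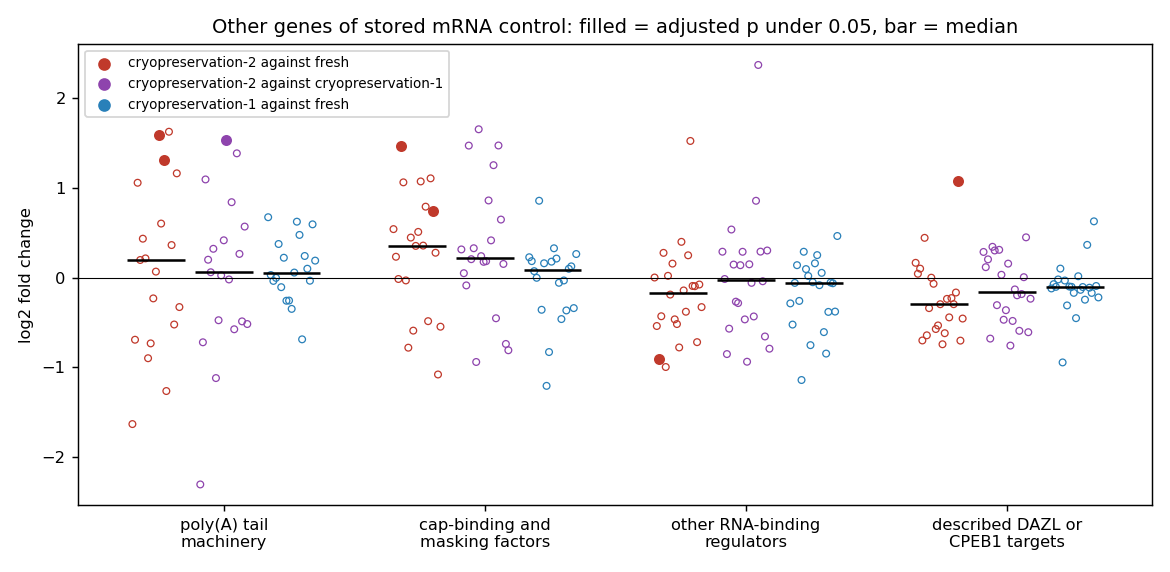
Log2 fold change (vertical axis) of each tested gene in 4 lists (horizontal axis), for cryopreservation-2 against fresh (red), cryopreservation-2 against cryopreservation-1 (purple) and cryopreservation-1 against fresh (blue); filled points have an adjusted p under 0.05 and black bars are list medians. The red medians are 0.20 and 0.35 for the poly(A) and cap-binding lists and -0.17 and -0.30 for the other 2, and no blue point is filled.

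The motif that CPEB1 binds was also set against the fold changes of all genes with a scored transcript. Those with a polyadenylation element in the last 100 bases (2550 genes) had a median log2 fold change of -0.27 in cryopreservation-2 against fresh, with quartiles at -0.71 and 0.27. Those without it (10124 genes) had a median of -0.08, with quartiles at -0.59 and 0.59. Among genes with the element 4.12% fell and 2.04% rose, beside 2.24% and 3.79% among those without it. For the Pumilio element the medians were -0.14 with and -0.11 without, and for the DAZL site -0.12 and -0.12. Against cryopreservation-1, the medians for the polyadenylation element were -0.23 with and -0.08 without, and in cryopreservation-1 against fresh they were -0.04 and 0.04. The distributions overlap widely, as the quartiles show.

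Transcripts with the polyadenylation element were slightly longer (median 3280 bases, against 3116) and lower in GC content (47.7%, against 49.5%). Genes that fell in cryopreservation-2 against fresh were longer than the rest, with a median transcript of 3028 bases against 2548 over all tested genes, while those that rose had 1588. The Dazl transcript has 2976 bases with a GC content of 37.0%, and that of Cpeb1 has 3111 bases and 48.2%. With offsets for GC content and length in the fit, the medians for the element were -0.21 with and 0.00 without it. The log2 fold change of Dazl was then -1.47 and that of Cpeb1 -0.59 against fresh. No test was made of the motif groups, whose genes are not independent.

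**Figure D5:**
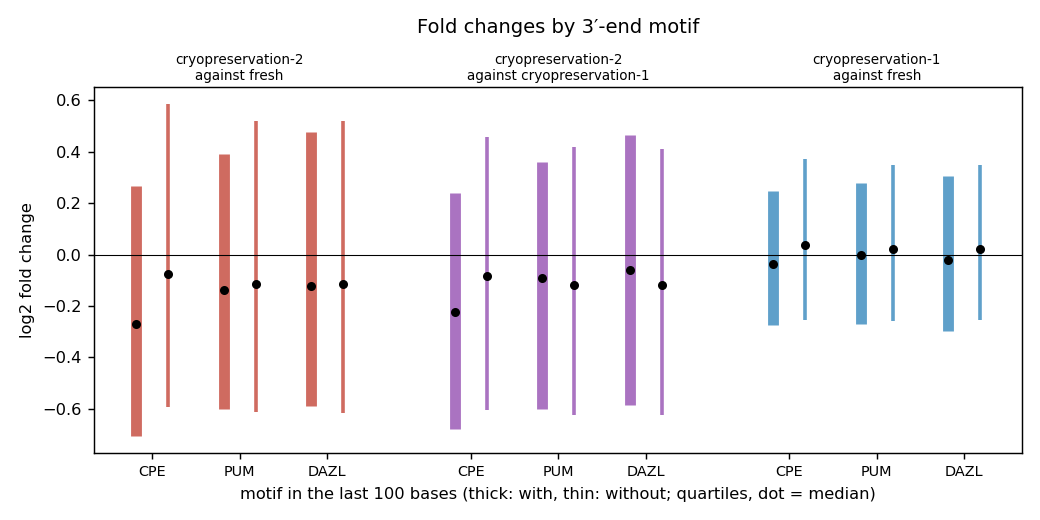
Log2 fold change (vertical axis) of genes with (thick bars) and without (thin bars) a polyadenylation element (CPE), a Pumilio element (PUM) or a DAZL site in the last 100 bases of the annotated transcript, in 3 comparisons; bars run between the quartiles and dots are medians. The widest gap between medians is that of the polyadenylation element in cryopreservation-2 against fresh, at -0.27 with and -0.08 without.

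Reads could be shared with an annotated gene on the opposite strand for Cpeb1 (the pseudogene Rpl7a-ps9), Cpeb2 (Gm7854) and Cpeb3 (A330032B11Rik and Gm23918), since the strand setting of the counting is not given in the sources used here. Gm7854 had at most 15 counts, A330032B11Rik at most 17 and Gm23918 at most 12 in any library. Rpl7a-ps9 was not found by name in the deposited data, so for Cpeb1 no such limit can be given. On the same strand, 6030400A10Rik and Gm42551 overlap Cpeb2 and were not found either. Gm22714 overlaps Cpeb3 on its own strand, with at most 3 counts. No gene on the opposite strand is annotated over Dazl, Ddx4, Cpeb4, Ybx2, Igf2bp2 or Pum2.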

How the data were processed

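Libraries were made from Trizol-extracted RNA after oligo(dT) selection, marked for strand with dUTP and amplified by PCR without molecular identifiers, per the labels' protocols. A message with a shorter poly(A) tail can be recovered less well on oligo(dT), so tail length and abundance cannot be told apart. Tools named in the submitters' processing notes are cutadapt 1.9, HISAT2 2.0.4, StringTie 1.3.4d, with build GRCm38. The authors deposited raw counts, not normalized, and FPKM values for 26358 genes.

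The counts were tested with edgeR 4.0.16 (quasi-likelihood, TMM scaling, R 4.3.3) after a filter on low counts (minimum count 10, minimum total 15), which kept 17545 genes. The 9 libraries entered 1 fit, p-values were adjusted by Benjamini and Hochberg within each contrast, and the threshold was 0.05. Intervals are 95% intervals of the fit, and levels carry the SD. The common coefficient of variation was 0.662. A count of 0 allows up to 3 counts, or 0.0371 to 0.0608 CPM by library, which covers counting error only.

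DESeq2 1.42.0, limma 3.58.1 on log2(FPKM + 1) and log2(FPKM + 0.1), other filters and scalings, offsets for GC content and length, a replicate block and leaving out libraries were tried as alternatives. Deviations of same-numbered libraries from their group means correlated at 0.271 to 0.439 between cryopreservation-1 and fresh, which the data alone pair, and at -0.389 to 0.168 between cryopreservation-2 and either group. Blocking on the number called 0 genes in cryopreservation-1 against fresh, as without it.

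The members and lists were chosen with earlier results of these data known. The text names every member, the called genes of each list with the smallest p in each direction of cryopreservation-2 against fresh, the 5 genes most like Dazl and the 5 most like Cpeb1, of which 1 is not reported here, and the 2 highest markers of each list. Motifs were searched in GENCODE M21 transcripts of build GRCm38, and gene positions are those of that build.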

Additional observations from a re-analysis of the deposited data

How the results depend on the processing

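In cryopreservation-2 against fresh, Dazl stayed between -1.88 and -1.41 (log2) and Cpeb1 between -0.79 and -0.50 under the 20 alternatives. Counts of called genes moved more. In cryopreservation-2 against fresh 944 genes were called, and 2704 with DESeq2, 1792 and 1654 with limma at pseudocounts of 1 and 0.1, 429 from the 2 groups alone, 1424 with GC content and length offsets, 231 to 786 with 1 library left out and 194 without the 3 libraries that stood apart, an alternative chosen after seeing the data. Between the methods 483 were called, and 2110 with DESeq2, 1175 and 1010 with limma, 905 with the offsets, 15 to 480 with 1 library left out and 0 without those 3 libraries. In cryopreservation-1 against fresh 0 were called, and 65 with DESeq2, 1 from the 2 groups alone and 0 to 1 with 1 library left out. Of the 944 calls 59.1% were higher in cryopreservation-2, and 80.7% and 78.8% with limma, 82.1% from the 2 groups alone and 47.3% with the offsets. Over the 4 lists, 6 genes were called against fresh, and 17 with DESeq2, 2 from the 2 groups alone, 11 with the offsets, 0 to 6 with 1 library left out and 1 without the 3 libraries. Between the methods 1 was called, and 4 with RLE factors, 13 with DESeq2, 4 at a mean of at least 5 FPKM, 4 and 2 with limma, 5 with the offsets, 3 with the replicate block and offsets, 0 to 2 with 1 library left out and 0 without the 3 libraries.

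The replicate block gave 500 calls against fresh (70.4% higher), 230 between the methods and 2 over the lists against fresh. A library correlated best with its own number in another group in 6 of 6 lookups between cryopreservation-1 and fresh and in 3 of 12 that involve cryopreservation-2, where the samples share only a number.

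No call changed for the 9 members tested in cryopreservation-1 against fresh or the 7 tested between the methods, but signs turned in values near 0. For Dazl in cryopreservation-1 against fresh the value was 0.022 with the replicate block and offsets, and -0.35 to 0.12 with 1 library left out. For Igf2bp2 in that comparison it was -0.017 with RLE factors, -0.023 with DESeq2, -0.022 at a mean of at least 5 FPKM, -0.016 from the 2 groups alone, -0.023 without the 3 libraries, -0.0040 with no filter, -0.12 with the offsets, -0.11 with the block and offsets, and -0.033 to 0.061 with 1 library left out. With 1 library left out, Cpeb2 lay at -0.86 to 0.98 and Ybx2 at -0.44 to 0.45 in that comparison, and between the methods at -0.80 to 0.13 and -0.16 to 0.49. Between the methods Cpeb2 was 0.70 without the 3 libraries. Cryopreservation-2 libraries are the shallowest, and Cpeb2 and Ybx2 had the fewest counts of the members. The coefficient of variation between libraries was 61.3% for Cpeb2 and 44.3% for Ybx2 in cryopreservation-2. In the deeper fresh libraries it was larger, at 103% and 58.4%. What sets this spread was not tested.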
